A study of Saccharomyces cerevisiae with 8 samples.

Results

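The 10 genes described here encode molecular chaperones and heat shock proteins of budding yeast. They were taken from a list that was chosen with earlier results of these data known. Of the genes, 6 are constitutive (SSA2, SSB2, HSC82, HSP60, SSE1 and YDJ1) and 4 stress-induced (HSP82, HSP104, HSP26 and SSA4). All lie on chromosomes where genes could be matched to the deposited summit positions, which hold 3432 of 6002 nuclear protein-coding genes. Chaperones bind unfolded or partly folded proteins and help them to fold, to stay soluble or to be refolded after damage. Yeast makes one set of them in every growing cell, several bound to ribosomes or needed for signalling proteins, and a second set mainly when heat or other stress activates the transcription factors Hsf1, Msn2 and Msn4. The near-identical pair HSC82 and HSP82 holds 1 member of each set.

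Chromatin was immunoprecipitated with an Rpb1 antibody from strain AM1003 (Rpb1 is the largest subunit of RNA polymerase II), and each of the 4 sequenced libraries came as a list of peak summits. The 0 h group (2 libraries) was untreated culture grown overnight in raffinose medium, and the 6 h group (2 libraries) had received 2% galactose for 6 h. Galactose switches on GAL::HO, the nuclease that cuts one site on chromosome III, and the series asks how polymerase is distributed while that break is repaired by break-induced replication. All samples are labelled WT (wild type) and carry the same strain background. No galactose culture without the nuclease is among them, so the sugar, the break and the time in culture cannot be told apart. Whether the replicates are separate cultures is not stated in the labels, and their spread may therefore be technical.

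There were 1186 and 1194 summits in replicates 1 and 2 at 0 h, and 1288 and 1074 in the 6 h lists. Each summit has a score, written by the peak caller as −log10 of either a p or a q value. It grows with read depth, which is unknown, and it was not normalized between libraries, so a score or its rank is read only within its own library. A list of summits holds no occupancy level. A gene without a summit may still carry polymerase below the authors' threshold. As a check of the treatment, 4 of 4 galactose genes (GAL1, GAL10, GAL2 and GAL80) had a summit in both 6 h libraries, with scores of 5.96 to 147, and they had 0 summits at 0 h within 250 bp.

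The constitutive and the stress-induced chaperone genes differed in whether any Rpb1 summit was found at them. Within 250 bp of the gene, 6 of 6 constitutive genes had a summit in at least 1 library, and 0 of 4 stress-induced genes had one in any library. Among all 3432 placed genes, 33% had a summit in at least 1 library and 67% in none, so 4 empty genes of 4 is close to what most genes show. Inside the gene alone, the counts were 5 of 6 and 0 of 4, beside 21.2% of placed genes. HSP60 counted at 250 bp only through 1 summit past its stop codon, in 0 h replicate 2. Because the genes were chosen with earlier results of these data known, this contrast and the distances below are descriptions and not tests. Within 250 bp, the 0 h lists of replicates 1 and 2 had a summit at 5 and 5 constitutive genes, and the 6 h lists at 4 and 3. The background shares for a single library were 19.8%, 19.5%, 23.3% and 20.4% in the same order. SSA2, SSB2 and HSC82 had a summit in all 4 libraries, SSE1 in 3, and HSP60 and YDJ1 in 1 each. Across all placed genes, 9.88% had a summit in all 4 libraries.

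**Figure D1:**
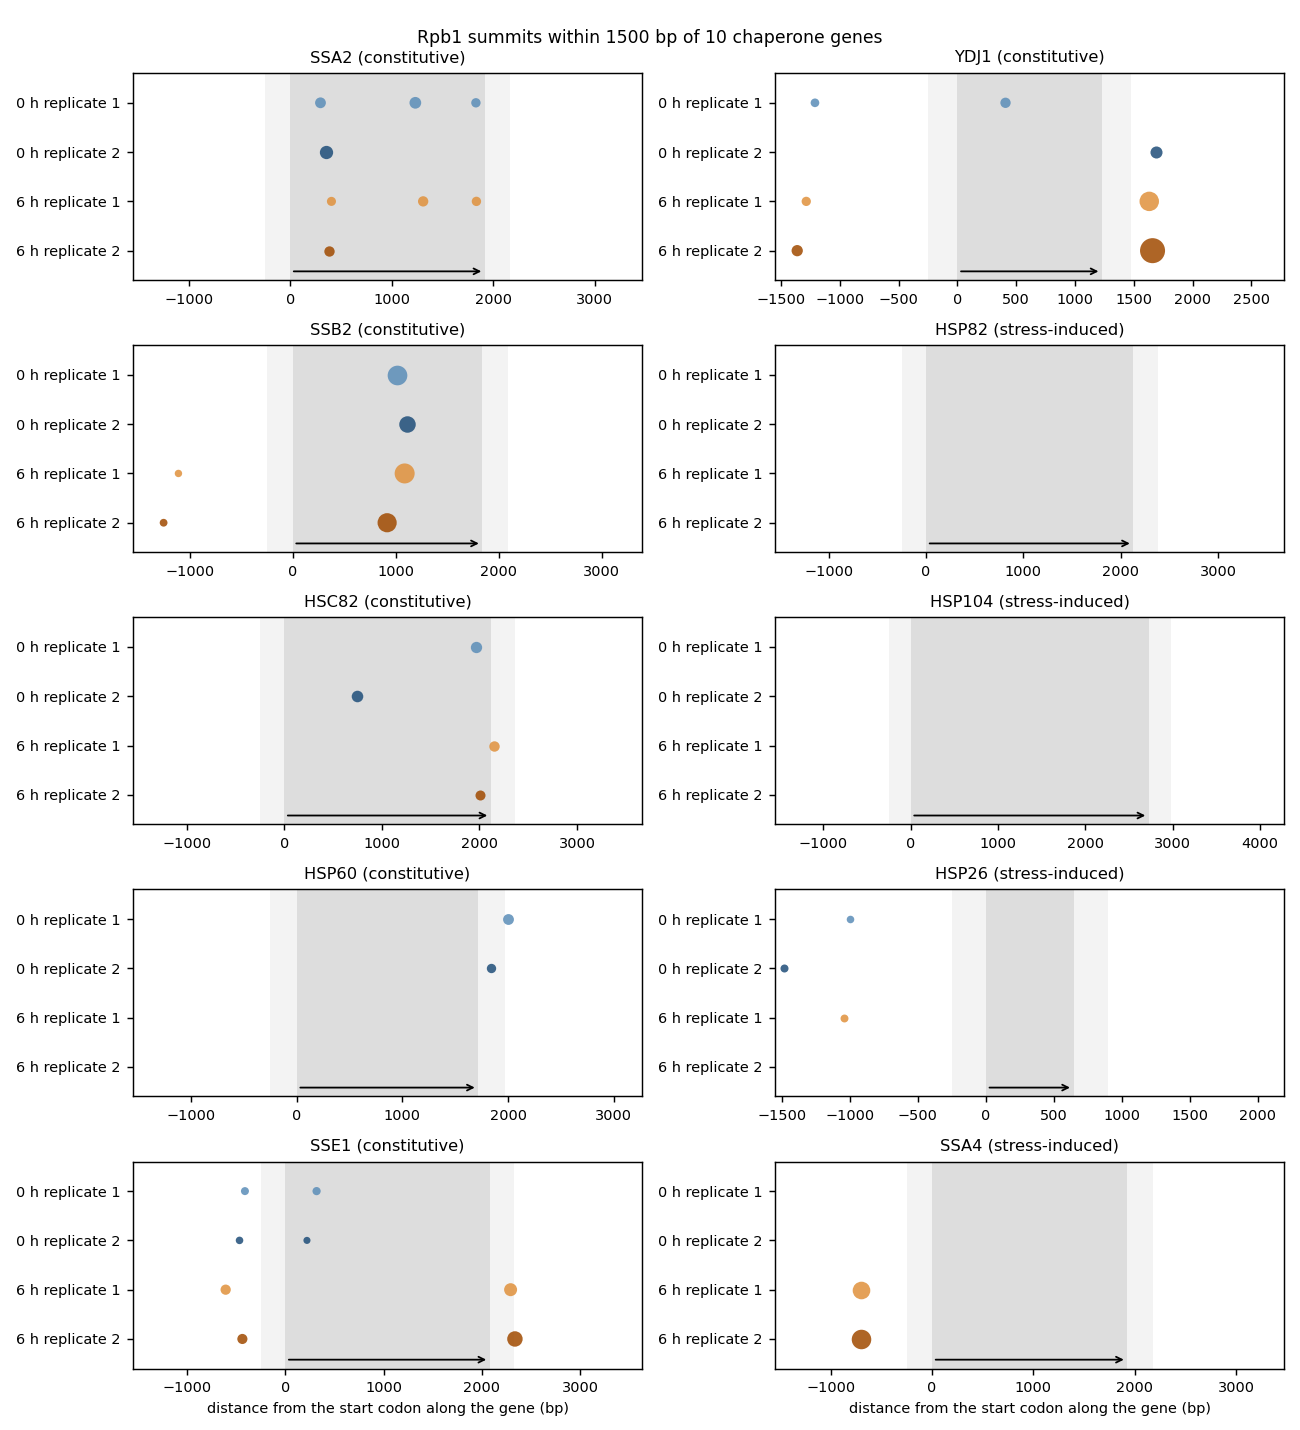
Positions of all Rpb1 summits up to 1500 bp from each of the 10 genes, as distance in bp from the start codon along the direction of transcription, with 1 line for each library (blue 0 h, orange and brown 6 h). Dark grey marks the gene, light grey the 250 bp on each side, and the dot area grows with the score, which is comparable only within a library. SSB2 has 1 summit near mid-gene in every library, SSE1 has a summit just inside the gene at 0 h and past the stop codon at 6 h, besides an upstream site in all 4 libraries, and the 4 stress-induced genes hold none.

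No chaperone gene of the 10 was gained or lost by the rule that asks for a summit in both libraries of one time and in neither of the other. The background was 4.31% of placed genes gained and 3.06% lost. The 10 genes had 12 summits within 250 bp at 0 h, 11 inside a gene and 1 past a stop codon. At 6 h they had 9, with 7 inside a gene and 2 past a stop codon. Such summits were not counted over all placed genes, so these counts are not read as a change at the members. They also depend on the window edge, which leaves out summits 285 bp past HSP60 at 0 h and 256 bp past SSE1 at 6 h. With 2 libraries against 2, an exact permutation of the libraries cannot give a p below 0.33, so no p is given.

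SSB2 (YNL209W, chromosome XIV) encodes an Hsp70 that binds nascent chains at the ribosome. Within 250 bp of the gene it had the highest score of the 10 genes in each of the 4 libraries, 43.5 and 29.4 at 0 h and 45.1 and 41.0 at 6 h. These scores ranked 113 of 1186, 215 of 1194, 106 of 1288 and 177 of 1074. In this gene of 1842 bp, the 0 h summits lay 1013 and 1111 bp past the start codon, and the 6 h summits 1087 and 917 bp past it. In the coordinates of the deposited lists, whose build is not stated, they are positions 253072, 253170, 253146 and 252976 of chromosome XIV. The 4 summits fell within 194 bp of each other, near the middle of the gene, and the positions of the time points overlapped. The mean position at 6 h minus that at 0 h was -60 bp, and the replicates differed by 98 bp at 0 h and 170 bp at 6 h, so this was no larger than the spread between replicates.

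SSA2 (YLL024C, chromosome XII) encodes the main constitutive cytosolic Hsp70. Its summits separated by replicate number rather than by time. Replicate 1 had 3 summits inside the gene at both times, 299, 1234 and 1831 bp past the start codon in the 0 h list and 407, 1311 and 1836 bp past it in the 6 h list. In order along the gene they scored 10.3, 12.9 and 6.82 before galactose and 6.14, 9.10 and 6.79 after it. Replicate 2 had 1 summit at each time, 355 bp from the start at 0 h with a score of 17.7 and 384 bp at 6 h with a score of 9.19. The site near the start of the gene was thus found in all 4 libraries within a span of 108 bp. The sites in the middle and near the stop codon were found in both replicate 1 libraries, within 77 and 5 bp, and in neither replicate 2 library. Taking the best-scoring summit of each library, the time points overlapped, with a mean difference of 53 bp beside 879 and 927 bp between replicates at 0 h and 6 h. That difference was -410.5 bp without 6 h replicate 1 and 516.5 bp without 6 h replicate 2.

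HSC82 (YMR186W, chromosome XIII) encodes the constitutive Hsp90, which matures kinases, receptors and other signalling proteins. In this gene of 2118 bp, the 0 h summits lay 1963 and 743 bp past the start codon, and the 6 h summits 2147 and 2010 bp past it. They scored 11.7, 12.4, 9.36 and 8.34 in the same order, with ranks of 421 of 1186, 403 of 1194, 529 of 1288 and 597 of 1074. Both 6 h summits were therefore further along the gene than both 0 h summits, which held for 40.7% of the 339 genes with a summit in all 4 libraries, while 10.3% had both upstream. The 0 h summits stood 1220 bp apart, and the nearest ones of the time points only 47 bp. The mean displacement was 725.5 bp, and it fell to 115.5 bp without 0 h replicate 2, so the larger value rests on that library. With gene bodies only, or among the better-scoring 50% of summits, HSC82 no longer had a summit in all 4 libraries. The 3 other summits fell within 184 bp at the end of the gene, from 154 bp before the stop codon to 30 bp past it. The last of these, in 6 h replicate 1, lies between HSC82 and the convergent gene YMR187C, which ends 216 bp away. It was 187 bp past the YMR187C stop codon and cannot be assigned to either gene.

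SSE1 (YPL106C, chromosome XVI) encodes an Hsp110 that exchanges the nucleotide of cytosolic Hsp70. At 0 h its summits lay near the start, 319 bp from the start codon in replicate 1 with a score of 4.28 and 221 bp in replicate 2 with a score of 2.17. These scores were low in their lists, ranking 943 of 1186 and 1188 of 1194. At 6 h no summit was inside the gene, and one lay past the stop codon by 212 bp in replicate 1 and 256 bp in replicate 2. Their scores of 16.7 and 25.3 ranked 348 of 1288 and 290 of 1074. The 6 h summits were 44 bp apart and the 0 h summits 98 bp apart, at opposite ends of a gene of 2082 bp, so the time points did not overlap. With 500 bp added, where SSE1 had a summit in all 4 libraries, 39.8% of 507 such genes had both 6 h summits downstream of both 0 h summits. In list coordinates the 0 h positions were 351956 and 352054 of chromosome XVI and the 6 h positions 349982 and 349938. By the gene body alone SSE1 was lost, as were 3.12% of placed genes. At 250 bp it was neither lost nor followed in all 4 libraries, because 212 bp is just inside that limit and 256 bp just outside.

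The summit past the SSE1 stop codon lies between 2 convergent genes and cannot be assigned to either of them. DPC25, transcribed towards SSE1, ends 328 bp away, and the 6 h summits were 117 and 73 bp past its stop codon. A second site, upstream of SSE1, was present in all 4 libraries, 410 and 465 bp before the SSE1 start codon at 0 h and 606 and 436 bp before it at 6 h. Its scores were 3.87, 3.01, 8.92 and 8.63. That site is next to the end of SYH1, which is transcribed towards SSE1 on the same strand. Summits there were 178 and 123 bp past the SYH1 stop codon at 0 h. At 6 h they lay 18 bp before it in replicate 1 and 152 bp past it in replicate 2.

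YDJ1 (YNL064C, chromosome XIV) encodes the main cytosolic J-domain protein, which delivers substrates to Hsp70 and stimulates its ATPase. Inside the gene it had 1 summit, 409 bp from the start codon in 0 h replicate 1, with a score of 9.11 and a rank of 495 of 1186. The other 3 libraries had a summit past the stop codon, 459 bp in 0 h replicate 2 and 402 and 430 bp in 6 h replicates 1 and 2. The scores there were 13.9, 42.5 and 72.9, with ranks of 371 of 1194, 118 of 1288 and 61 of 1074. These 3 summits fell within 57 bp, so 0 h replicate 2 resembled the 6 h libraries in position, and 0 h replicate 1 stood apart. They lay 75, 18 and 46 bp before the stop codon of AQR1, a gene for a membrane transporter that converges with YDJ1 and ends 383 bp from it. By the annotated positions this site is inside AQR1. The landmark genes of chromosome XIV had a best shift of -200 bp, the only one among the member chromosomes that was not 0 bp. With the genes moved by that amount, the site was 259, 202 and 230 bp past the YDJ1 stop codon, so both 6 h summits then fell within 250 bp of YDJ1. The offset averaged over both strands of that chromosome was 79.9 bp in the other direction, which put it 539, 482 and 510 bp past.

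HSP60 (YLR259C, chromosome XII) encodes the chaperonin of the mitochondrial matrix. At 0 h a summit lay past its stop codon, by 285 bp in replicate 1 with a score of 10.4 and by 124 bp in replicate 2 with a score of 6.76. They ranked 446 of 1186 and 622 of 1194. At 6 h the nearest summits were 4197 bp upstream of the gene in replicate 1 and 3490 bp downstream in replicate 2. The 0 h summits were 161 bp apart, at positions 662999 and 663160 of chromosome XII in list coordinates, so both 0 h libraries had the site and neither 6 h library did. With 250 bp added to the gene, only the second of them counted. With 500 bp added, HSP60 was lost, beside 2.65% of placed genes. The convergent neighbour GSY2 ends 450 bp away, and the summits were 166 and 327 bp past its stop codon. On chromosome XII the landmark summits were offset by 160 bp from their genes when both strands were averaged, and a correction by that amount put the HSP60 summits 125 bp past and 36 bp before the stop codon.

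**Figure D2:**
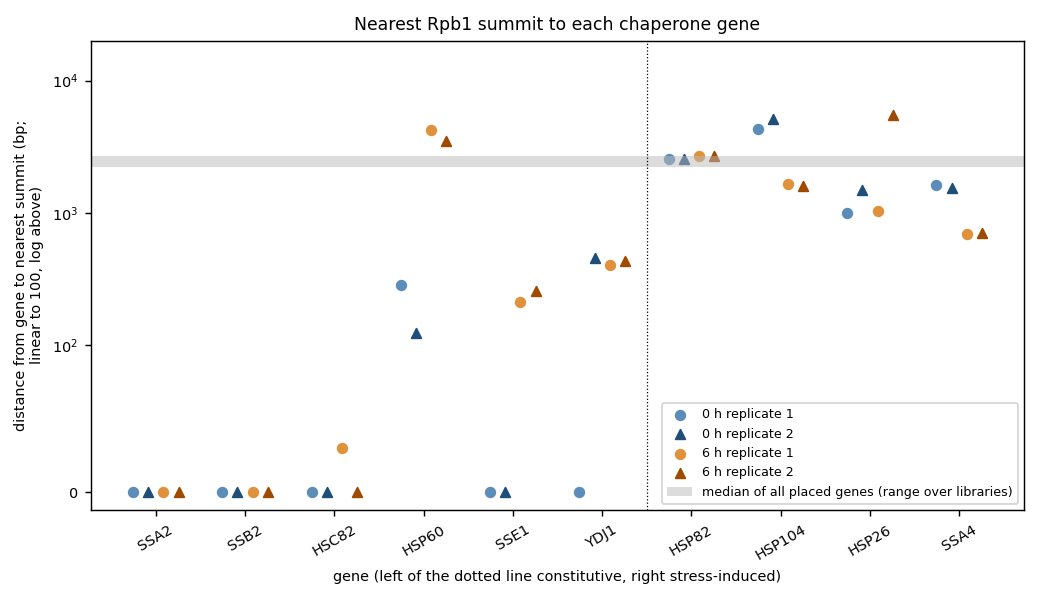
Distance in bp from each of the 10 genes to the nearest Rpb1 summit in each library (0 is a summit inside the gene; the axis is linear to 100 bp and logarithmic above). Circles are replicate 1 and triangles replicate 2, and the grey band is the range over libraries of the median of all placed genes. At 0 h the constitutive genes lie at 0 to 459 bp and the stress-induced genes at 999 to 5130 bp. At 6 h the 2 HSP60 values lie among those of the stress-induced genes.

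The stress-induced genes had their nearest summits at other genes, SSA2 among them, or in intergenic DNA. At 0 h the distance to the nearest summit was 0 to 459 bp over the constitutive genes and 999 to 5130 bp over the stress-induced genes, and these ranges did not overlap. At 6 h the ranges were 0 to 4197 bp and 697 to 5532 bp, overlapping through HSP60. The median over all placed genes was 2214.5 to 2706.5 bp, depending on the library. The stress-induced genes, with medians of 2076.5 bp at 0 h and 1625.5 bp at 6 h, were thus about as far from a summit as an ordinary gene.

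HSP82 (YPL240C, chromosome XVI) encodes the heat-inducible Hsp90 and is the near-identical partner of HSC82. Its nearest summits lay 2534 and 2543 bp upstream at 0 h and 2695 and 2687 bp upstream at 6 h. All 4 were within 250 bp of SUI3, a gene for a subunit of translation initiation factor eIF2. HSP104 (YLL026W, chromosome XII), which encodes the disaggregase that pulls proteins out of aggregates, had no summit closer than 4305 and 5130 bp at 0 h. The first of these was a summit inside SSA2, a constitutive member, and the second was within 250 bp of FRA1. At 6 h a summit lay 1644 and 1607 bp upstream of HSP104, with scores of 5.65 and 15.0, and no annotated gene was within 250 bp of that site.

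SSA4 (YER103W, chromosome V) encodes the cytosolic Hsp70 that is made under stress. Its nearest summits were 1619 and 1540 bp upstream at 0 h and 697 and 703 bp upstream at 6 h. All 4 were within 250 bp of the ribosomal protein gene RPS8B, which is transcribed towards SSA4 and ends 886 bp before it. The 6 h summits lay 190 and 184 bp past the RPS8B stop codon, so the shorter distance to SSA4 at 6 h came from summits next to RPS8B. HSP26 (YBR072W, chromosome II) encodes a small heat shock protein that holds unfolding proteins in a soluble form. Its nearest summits were 999 and 1488 bp upstream at 0 h and 1040 and 5532 bp upstream at 6 h, the first 3 of them within 250 bp of YBR071W.

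**Figure D3:**
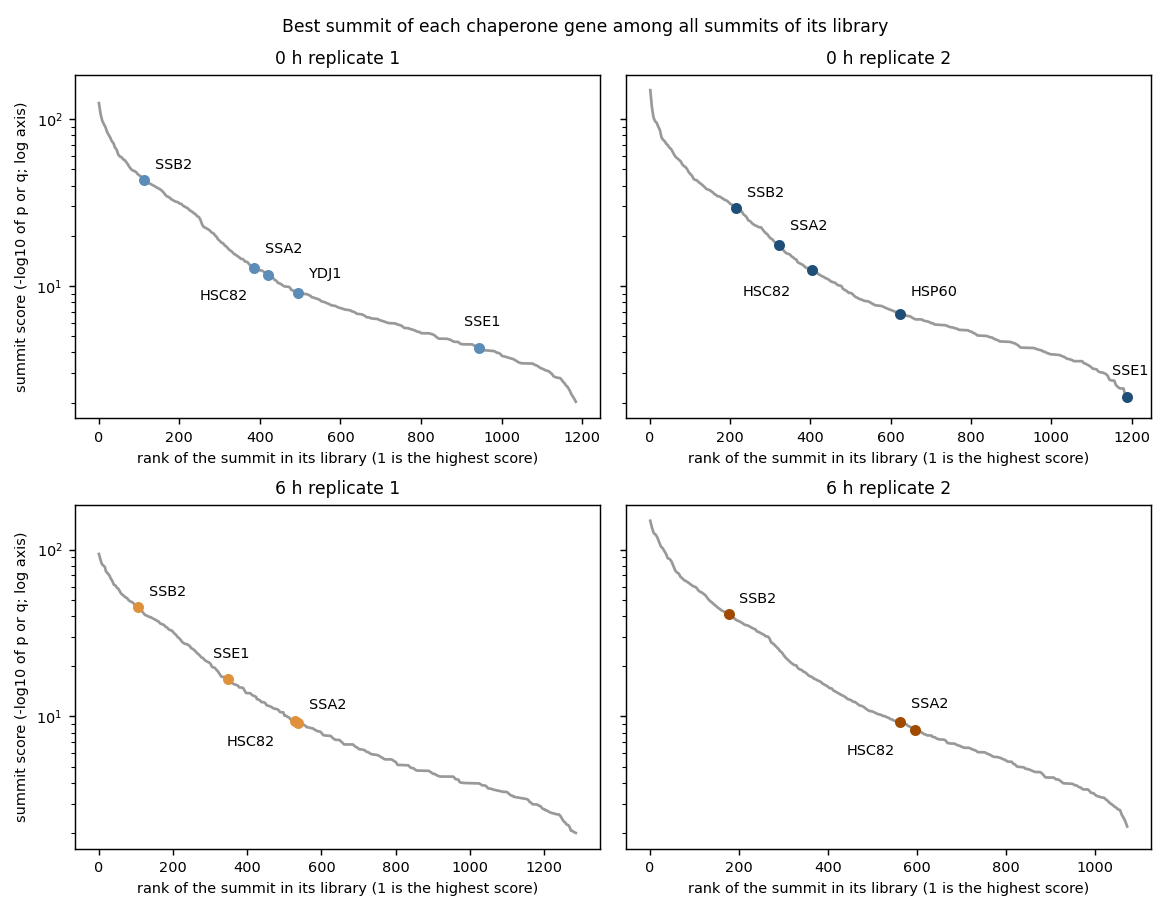
Score of every summit against its rank for each library (grey, logarithmic score axis), with the best summit within 250 bp of each chaperone gene marked. SSB2 is the highest in each of the 4 panels, at rank 106 to 215, and SSE1 is low on the curve at 0 h, at ranks 943 and 1188. No stress-induced gene appears because none had a summit in this window.

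Within each library the constitutive genes kept a partly shared order of scores. Within 250 bp of the gene, SSB2 came first in all 4, and at 500 bp the site beside AQR1 put YDJ1 above it in 6 h replicate 2. With the genes of chromosome XIV moved by their best shift of -200 bp, that site was 202 and 230 bp past YDJ1 at 6 h. YDJ1 then came above SSB2 in 6 h replicate 2 within 250 bp too. SSA2 (best scores of 12.9, 17.7, 9.10 and 9.19) and HSC82 (11.7, 12.4, 9.36 and 8.34) lay close together, with SSA2 above HSC82 in 3 of 4 libraries. At the annotated positions, YDJ1 and HSP60, where they had a summit within 250 bp, came below both. SSE1 was lowest in both 0 h libraries and second in 6 h replicate 1. These are ranks of confidence in a peak and not levels of transcription.

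Several of these genes have close copies, and the handling of reads that fit both copies is not given in the sources used here. SSA2 has SSA1, SSB2 has SSB1, and HSC82 has HSP82. Where reads were shared out or discarded, a copy can lose score, and a summit can be moved to the stretches where the copies differ. SSA1 and SSB1 lie on chromosomes where genes could not be placed and were not analysed here. The empty HSP82 beside HSC82 and the positions of the SSA2 sites carry this uncertainty, and its part in them was not tested.

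Of 78 further chaperone, co-chaperone and stress genes listed, 38 were on placed chromosomes, and 9 of these (23.7%) had a summit within 250 bp in at least 1 library, beside 33% of all placed genes. In all 4 libraries 3 genes had one, beside 9.88%. The group of Hsp90 co-chaperones had 4 of 6 genes with a summit, namely HCH1, SBA1, STI1 and SGT1. HCH1 had one in 4 libraries and SBA1 in 3. STI1 and SGT1 had one in 1 library each, with scores of 4.48 and 3.17. The cytosolic Hsp70 group and its co-chaperones had 0 of 9, including SIS1, the essential J-domain protein, FES1, a nucleotide exchange factor, and the stress-induced SSA3 and SSE2. This count covers 9 of 15 listed genes. It leaves out the members of the same system, of which SSA2, SSB2, SSE1 and YDJ1 had a summit and SSA4 had none. Prefoldin had 1 of 4 (GIM4). The group of prolyl isomerases had 0 of 2 and the regulators MSN2 and MSN4 0 of 2.

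By the rule for gains and losses, 1 of the 38 genes was gained and 1 was lost, beside 4.31% and 3.06% of all placed genes. The lost gene was HSP10, which encodes the lid that closes the Hsp60 chaperonin. Its summits at 0 h had scores of 7.1 and 5.34, lying 82 bp past the stop codon in replicate 1 and 72 bp from the start codon in replicate 2, and no 6 h summit was within 250 bp. The gained gene was ERO1, which encodes the oxidase that forms disulfide bonds in the endoplasmic reticulum. Its 6 h summits lay 534 and 1401 bp from the start codon, with scores of 6.82 and 13.7. Among the better-scoring 50% of summits neither call held. With gene bodies alone HSP10 was not lost, and UBI4 was lost in its place.

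The 3 further genes found in all 4 libraries differed in how their summits lay. UBI4 is the polyubiquitin gene induced by stress. Its 0 h summits were 714 and 583 bp past the start codon, and its 6 h summits 1307 and 1293 bp, which is 162 and 148 bp past the stop codon. They scored 27.1 and 19.4, then 18.5 and 31.4. Both 6 h summits were downstream of both 0 h summits, as at 40.7% of the 339 placed genes with a summit in all 4 libraries. The mean difference of 651.5 bp exceeded the spread between replicates. EGD1, for a subunit of the nascent polypeptide-associated complex, had its 0 h summits 682 and 381 bp past the start codon and its 6 h summits 677 and 699 bp past it. HCH1, for an activator of Hsp90, had them at 502 and 370 bp and at 470 and 401 bp. At EGD1 and HCH1 the time points overlapped.

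**Figure D4:**
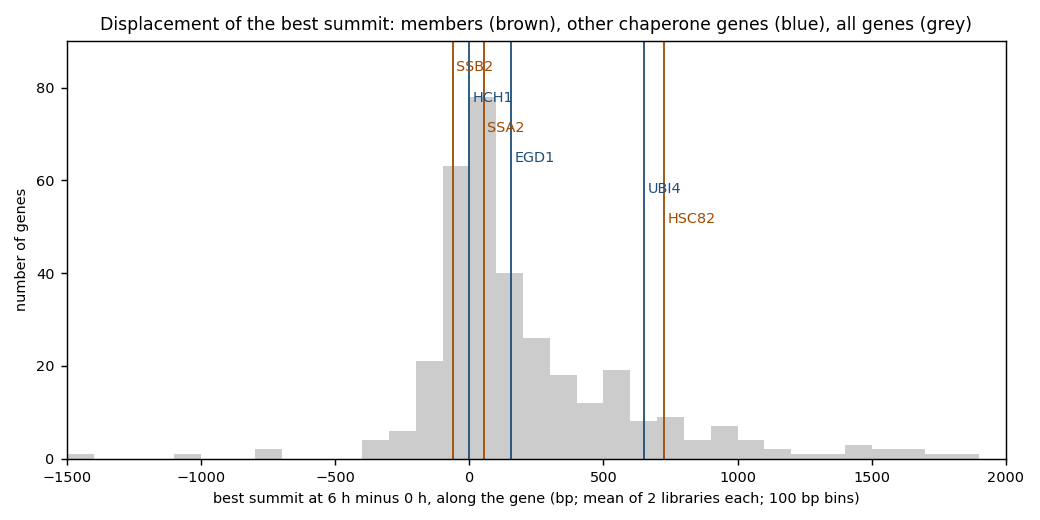
Number of genes by displacement of the best summit from 0 h to 6 h, in bp along the gene (mean of 2 libraries at each time, bins of 100 bp), for the 339 placed genes with a summit within 250 bp in all 4 libraries, of which 3 lie beyond the axis. Vertical lines mark SSA2, SSB2 and HSC82 in brown and HCH1, EGD1 and UBI4 in blue. SSA2 and SSB2 lie near 0 bp, and HSC82 and UBI4 in the right tail.

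Among the 3 members with a summit within 250 bp in all 4 libraries, the displacement of the best summit was 53 bp at SSA2, -60 bp at SSB2 and 725.5 bp at HSC82, with a median of 53 bp. The median over all 339 such genes was 84.5 bp, with quartiles of -11.3 and 369 bp. With 500 bp added to each gene, SSE1 (2388 bp) and YDJ1 (596.5 bp) joined them, and the median was 596.5 bp over 5 members, beside 74 bp over 507 genes. With the strand offset of each chromosome corrected, SSE1 alone joined, and the median was 389.2 bp over 4 members. In the 500 bp window, SSE1 had both 6 h summits downstream of both 0 h summits, as did 39.8% of 507 genes. The gap between the nearest ones was 1974 bp. In that window the best 0 h replicate 2 summit at SSE1 was the one beside SYH1. At YDJ1 the time points overlapped, with the 0 h replicate 2 summit 57 bp beyond the lowest of the 6 h summits.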

How the data were processed

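Rpb1 chromatin immunoprecipitation libraries (2 at 0 h, 2 at 6 h) were analysed, and the 4 input samples were not analysed here. MACS2 2.2.7.1, Bowtie2 2.2.4, fastp 0.20.1 and SAMtools 1.10 are listed, per the submitters' processing notes, without role or parameter. For build, threshold and control, the value is not given in the sources used here. Per library, the authors deposited 1 summit list, not pooled, with a position and a −log10 score (p-value or q-value not stated). The lowest score was 2.00 to 2.16 by library.

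Genes were named from a RefSeq table (assembly R64), and strands were read from the locus tags. No reference coordinate is printed because the build of the lists is not named. Each chromosome was tested by sliding 258 landmark genes (ribosomal protein, small nucleolar RNA, glycolytic and translation factor genes) in 100 bp steps over 12000 bp to each side. It was used with at least 10 landmarks and a best shift within 500 bp, which held for 8 of 16. On the 6 chromosomes with members, unshifted landmarks within 250 bp of a summit made up 84.6% to 100%. The mean of the 2 strands' median offsets was 9.5 to 160 bp in size there, and distances to codons carry an error of at least that order. Chromosome XIV, which holds SSB2 and YDJ1, had a best shift of -200 bp and a strand offset of 79.9 bp. These differ in sign, so the error there may be larger.

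A gene counted as having a summit if one lay in it or within 250 bp. Displacement used the best-scoring summit of each library. The calling rules were tested on simulated data. The 10 members were named, with listed genes that were gained, lost or present in all 4 libraries, others with a summit where a group's count is given, and neighbours within 250 bp of a summit. SIS1, FES1, SSA3, SSE2, MSN2 and MSN4, which held none, were named after their values were seen. Members and lists were chosen with earlier results of these data known. Python 3.11.15, numpy 2.4.6, pandas 2.3.3 and matplotlib 3.10.9 were used. Alternatives were other windows, the better-scoring 50% of summits, each library left out, a replicate block, the summit nearest mid-gene and 2 corrections of gene position. Promoter motifs and protein identity were planned and not run, as no sequence was given.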

Additional observations from a re-analysis of the deposited data

How the results depend on the processing

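Members gained stayed at 0 in every alternative run. Members with a summit in all 4 libraries numbered 3, then 5 with a 500 bp window and 1 with the better-scoring 50% of summits, and were 3 to 4 over the leave-outs. Members lost rose from 0 to 1 with gene bodies only (SSE1), with a 500 bp window (HSP60) and with the strand offset of the chromosome corrected (HSP60), an alternative chosen after seeing the data. Leaving out 1 library gave 0 to 1, namely HSP60 without 0 h replicate 1, YDJ1 without 0 h replicate 2 and SSE1 without 6 h replicate 1. Downstream members went from 1 to 0 with gene bodies only and with the better-scoring 50%, to 2 with a 500 bp window or the strand offset, and to 1 to 3 over the leave-outs. Upstream members were 0 to 1 over the leave-outs.

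Over all placed genes, gains went from 148 to 75 with gene bodies only, and losses from 105 to 63 with the better-scoring 50%. The leave-outs gave 198 to 254 gains and 132 to 167 losses, because the rule then asks for fewer libraries. The downstream share of 40.7% became 44.4% with the better-scoring 50%, 38.3% with the strand offset and 52.8% to 56.3% over the leave-outs. The upstream share of 10.3% became 13.8% with 500 bp added and 19.2% to 23.2% over the leave-outs. The listed further genes went from 1 to 0 gained and from 1 to 0 lost with the better-scoring 50%, and to 1 to 2 of each over the leave-outs (GIM4 gained and STI1 lost without 0 h replicate 2, SBA1 lost without 6 h replicate 1, SGT1 gained without 6 h replicate 2). The median displacement over members ran from -145 to 655 bp over the leave-outs, and the displacement of SSB2 from -145 to 25 bp. For the remaining changes the cause was not tested.

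The time points carry the same replicate numbers, but over 3432 genes the correlation of same-numbered deviations in summit presence was 0.033, and no label says that a number marks a shared culture. With a replicate block, the mean over same-numbered pairs was 0 gained, 1.5 lost, 3 downstream and 0.5 upstream members. It was 297 gained and 220.5 lost genes in all, shares of 65.5% downstream and 33.7% upstream, and 2 gained and 2 lost of the further genes, since only 1 library per time enters a pair. Of 150 alternative values, 102 stayed within 1.5 times for counts or 1 SD between replicates for positions and shares. For the median displacement over members that SD was 613.8 bp, so large moves also counted as unchanged. A change of sign was scored only for HSC82, where the positions had not overlapped, and only in settings that kept its summit in all libraries used. It occurred 0 times, which says little about the other values. Read depth is unknown and limits every empty gene.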
